A study of Mus musculus with 100 samples.

Results

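The 10 genes described here encode proteins that neutrophils store in their granules or hold in their cytosol: S100a8, S100a9, Ngp, Camp, Ltf, Elane, Mpo, Prtn3, Ctsg and Retnlg. They were chosen by gene symbol from the table of read counts, in which all 10 were found among 17310 genes, and they were followed over every strain, time point and joint. Knee joints of MRL/MpJ, C57BL/6 and STR/ort mice, which the labels class as not, moderately and highly susceptible to post-traumatic osteoarthritis, were measured by RNA sequencing. By the labels the mice were 10 weeks old when injured, and no transgene is named. Per the study's methods the mice were loaded under isoflurane and received the opioid buprenorphine right after injury, which both joints of an injured mouse share. Joints of later times came from correspondingly older mice. The right knee was injured by 1 compressive load of 10 to 12 N on the tibia, which ruptures the anterior cruciate ligament, and the contralateral joint was left uninjured. The 100 libraries comprised uninjured joints at 0-day, collected before injury (4 per strain), and injured and uninjured contralateral joints of each strain after injury, at 1-day, at 1-week and at 2-weeks (5 per group, except 4 for uninjured MRL/MpJ and STR/ort joints at 1-week). The labels name the animal at 2-weeks alone, where the injured and uninjured joints of 1 replicate number came from the same mouse. The uninjured joint of an injured mouse served as its control, and no joint of a sham-loaded mouse was analysed here.

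Neutrophils are made in the bone marrow, and they fill their granules in an order. Promyelocytes make the azurophil granules with myeloperoxidase (Mpo) and the serine proteases neutrophil elastase (Elane), proteinase 3 (Prtn3) and cathepsin G (Ctsg). Myelocytes and metamyelocytes make the specific granules with lactoferrin (Ltf), the cathelicidin Camp and neutrophilic granule protein (Ngp). S100a8 and S100a9, the calgranulins, form the calcium-binding heterodimer calprotectin that fills the cytosol of maturing and mature neutrophils and can act on Toll-like receptor 4 once released. Retnlg encodes a resistin-like protein that is found in marrow and blood neutrophils. Mature neutrophils in blood or in an inflamed joint have largely shut down the azurophil and specific granule genes, whereas they go on making the calgranulins.

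The genes lie on 6 chromosomes of GRCm38. Elane (chr10:79886312-79888216) begins close behind Prtn3 (chr10:79879667-79883174) on the same strand. S100a8 (chr3:90669071-90670034) and S100a9 (chr3:90692630-90695721) are neighbours in the cluster of S100 genes, on opposite strands. Camp (chr9:109847377-109849456), Ngp (chr9:110419808-110423012) and Ltf (chr9:111019292-111042766) share chromosome 9, whereas Mpo (chr11:87793784-87804412), Ctsg (chr14:56099885-56102574) and Retnlg (chr16:48872608-48874498) lie apart. The 250 bases before the start of each gene, taken from RefSeq on GRCm38.p6, were searched on both strands for GAGGAA, a core that PU.1 binds, and for TTGCNNAA, the letters of a C/EBP site. PU.1 and the C/EBP proteins are the transcription factors best known for switching on granule genes. GAGGAA stood in 6 of the 10 windows, among them all 4 azurophil genes, against 23.3% of all 32817 windows of this length. TTGCNNAA stood in 4 windows (Ltf, Ngp, S100a9 and Retnlg) and in 0 of the 4 azurophil windows, against 9.57% of all windows. Camp alone held neither. No match of 1 motif overlapped a match of the other. The windows of 7 members, each called in at least 1 comparison, are shown here 5′ to 3′ on the strand of the gene, with matches in capitals.
Elane: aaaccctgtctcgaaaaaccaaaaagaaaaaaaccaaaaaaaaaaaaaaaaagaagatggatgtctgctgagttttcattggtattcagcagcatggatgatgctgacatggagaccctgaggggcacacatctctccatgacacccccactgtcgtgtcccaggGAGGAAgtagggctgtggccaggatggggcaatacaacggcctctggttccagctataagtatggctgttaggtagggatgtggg
Prtn3: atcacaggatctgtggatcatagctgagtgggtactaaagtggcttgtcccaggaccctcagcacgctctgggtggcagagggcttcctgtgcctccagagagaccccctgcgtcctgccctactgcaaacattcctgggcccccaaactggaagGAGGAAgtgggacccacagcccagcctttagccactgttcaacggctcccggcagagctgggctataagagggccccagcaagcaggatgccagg
Ctsg: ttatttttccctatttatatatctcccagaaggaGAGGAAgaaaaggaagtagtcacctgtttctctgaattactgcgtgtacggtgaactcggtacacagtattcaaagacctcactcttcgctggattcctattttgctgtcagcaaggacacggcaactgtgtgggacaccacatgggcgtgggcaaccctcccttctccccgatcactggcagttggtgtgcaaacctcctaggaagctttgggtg
Ltf: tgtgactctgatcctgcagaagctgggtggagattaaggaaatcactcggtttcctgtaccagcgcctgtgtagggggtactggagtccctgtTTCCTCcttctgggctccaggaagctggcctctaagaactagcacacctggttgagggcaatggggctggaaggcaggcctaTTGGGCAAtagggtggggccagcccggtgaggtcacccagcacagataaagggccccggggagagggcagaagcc
Camp: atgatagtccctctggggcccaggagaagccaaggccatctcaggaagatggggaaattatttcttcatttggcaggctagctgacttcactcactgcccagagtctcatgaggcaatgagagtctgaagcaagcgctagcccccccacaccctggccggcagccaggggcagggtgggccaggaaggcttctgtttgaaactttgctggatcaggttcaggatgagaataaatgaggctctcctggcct
Ngp: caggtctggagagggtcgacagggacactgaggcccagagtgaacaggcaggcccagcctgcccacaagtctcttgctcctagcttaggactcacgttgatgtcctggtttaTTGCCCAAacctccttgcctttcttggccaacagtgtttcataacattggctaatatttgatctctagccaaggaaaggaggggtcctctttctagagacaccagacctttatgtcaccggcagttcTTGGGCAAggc
S100a8: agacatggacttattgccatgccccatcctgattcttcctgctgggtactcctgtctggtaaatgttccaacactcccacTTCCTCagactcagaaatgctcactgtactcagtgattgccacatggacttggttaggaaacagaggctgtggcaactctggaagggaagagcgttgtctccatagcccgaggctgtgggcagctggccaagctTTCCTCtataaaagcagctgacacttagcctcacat

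These windows are chr10:79886062-79886311 (plus strand) for Elane, chr10:79879417-79879666 (plus) for Prtn3, chr14:56102575-56102824 (minus) for Ctsg, chr9:111019042-111019291 (plus) for Ltf, chr9:109849457-109849706 (minus) for Camp, chr9:110419558-110419807 (plus) for Ngp and chr3:90668821-90669070 (plus) for S100a8. In Elane the capitals mark GAGGAA 85 to 80 bases before the start, and in the neighbouring gene Prtn3 they mark it 95 to 90 bases before. The capitals of S100a8 and the first capitals of Ltf are GAGGAA read on the other strand. In Ngp they are the C/EBP letters, once on each strand, and the last ones end 4 bases before the start. The letters are those of the C57BL/6J reference. They describe the windows and say nothing about binding in these joints.

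Libraries held 6182016 to 20986027 counts (median 10582592). The 10 genes took 0.806% to 2.08% of all counts of a library, and each had at least 178 counts in every library. By their labels the 2-weeks libraries were a second experimental batch and all earlier ones the first, and at 2-weeks the time and the batch cannot be told apart. Levels are CPM, the counts of a gene divided by library size after TMM scaling. Called genes are those with an adjusted p below 0.05 (edgeR, quasi-likelihood test, Benjamini-Hochberg) and a change of more than 1.5-fold. Counts at an unadjusted p below 0.05 are given without a share of all genes and are descriptions only. Markers of cartilage (Col2a1, Acan), bone (Ibsp, Bglap) and skeletal muscle (Myh4) were detected in all 100 libraries, so the joints also held bone and muscle. All 105 genes of 15 marker lists that the table holds had counts in every library. In such bulk samples fewer cells of a type and less RNA per cell cannot be told apart.

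In joints before injury, levels per kilobase of exon differed by a wide margin among the 10 genes. S100a9 had the highest mean over the 3 strains, 8449 CPM per kilobase (7082 to 10517 over 12 libraries). S100a8 (4279, from 2101 to 5618) and Ngp (3835, from 3263 to 4993) followed, with overlapping ranges. Camp (1017, from 752 to 1249), Retnlg (731, from 581 to 858) and Ltf (679.7, from 428 to 853) overlapped as well. The azurophil genes had lower means and did not overlap each other, with Mpo at 375 (325 to 429), Elane at 201 (172 to 217), Ctsg at 137 (117 to 171) and Prtn3 at 40.7 (29.3 to 49.1) CPM per kilobase. The highest library of Mpo lay just above the lowest of Ltf (428.55 and 428.11). Within groups of 1 strain, time and joint the genes moved together from library to library: Pearson's r of the deviations from the group means was between 0.471 and 0.906 for the 45 pairs of genes, with a median of 0.712 over 100 libraries. These libraries share their scaling factor for all genes, and no p is given.

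**Figure D1:**
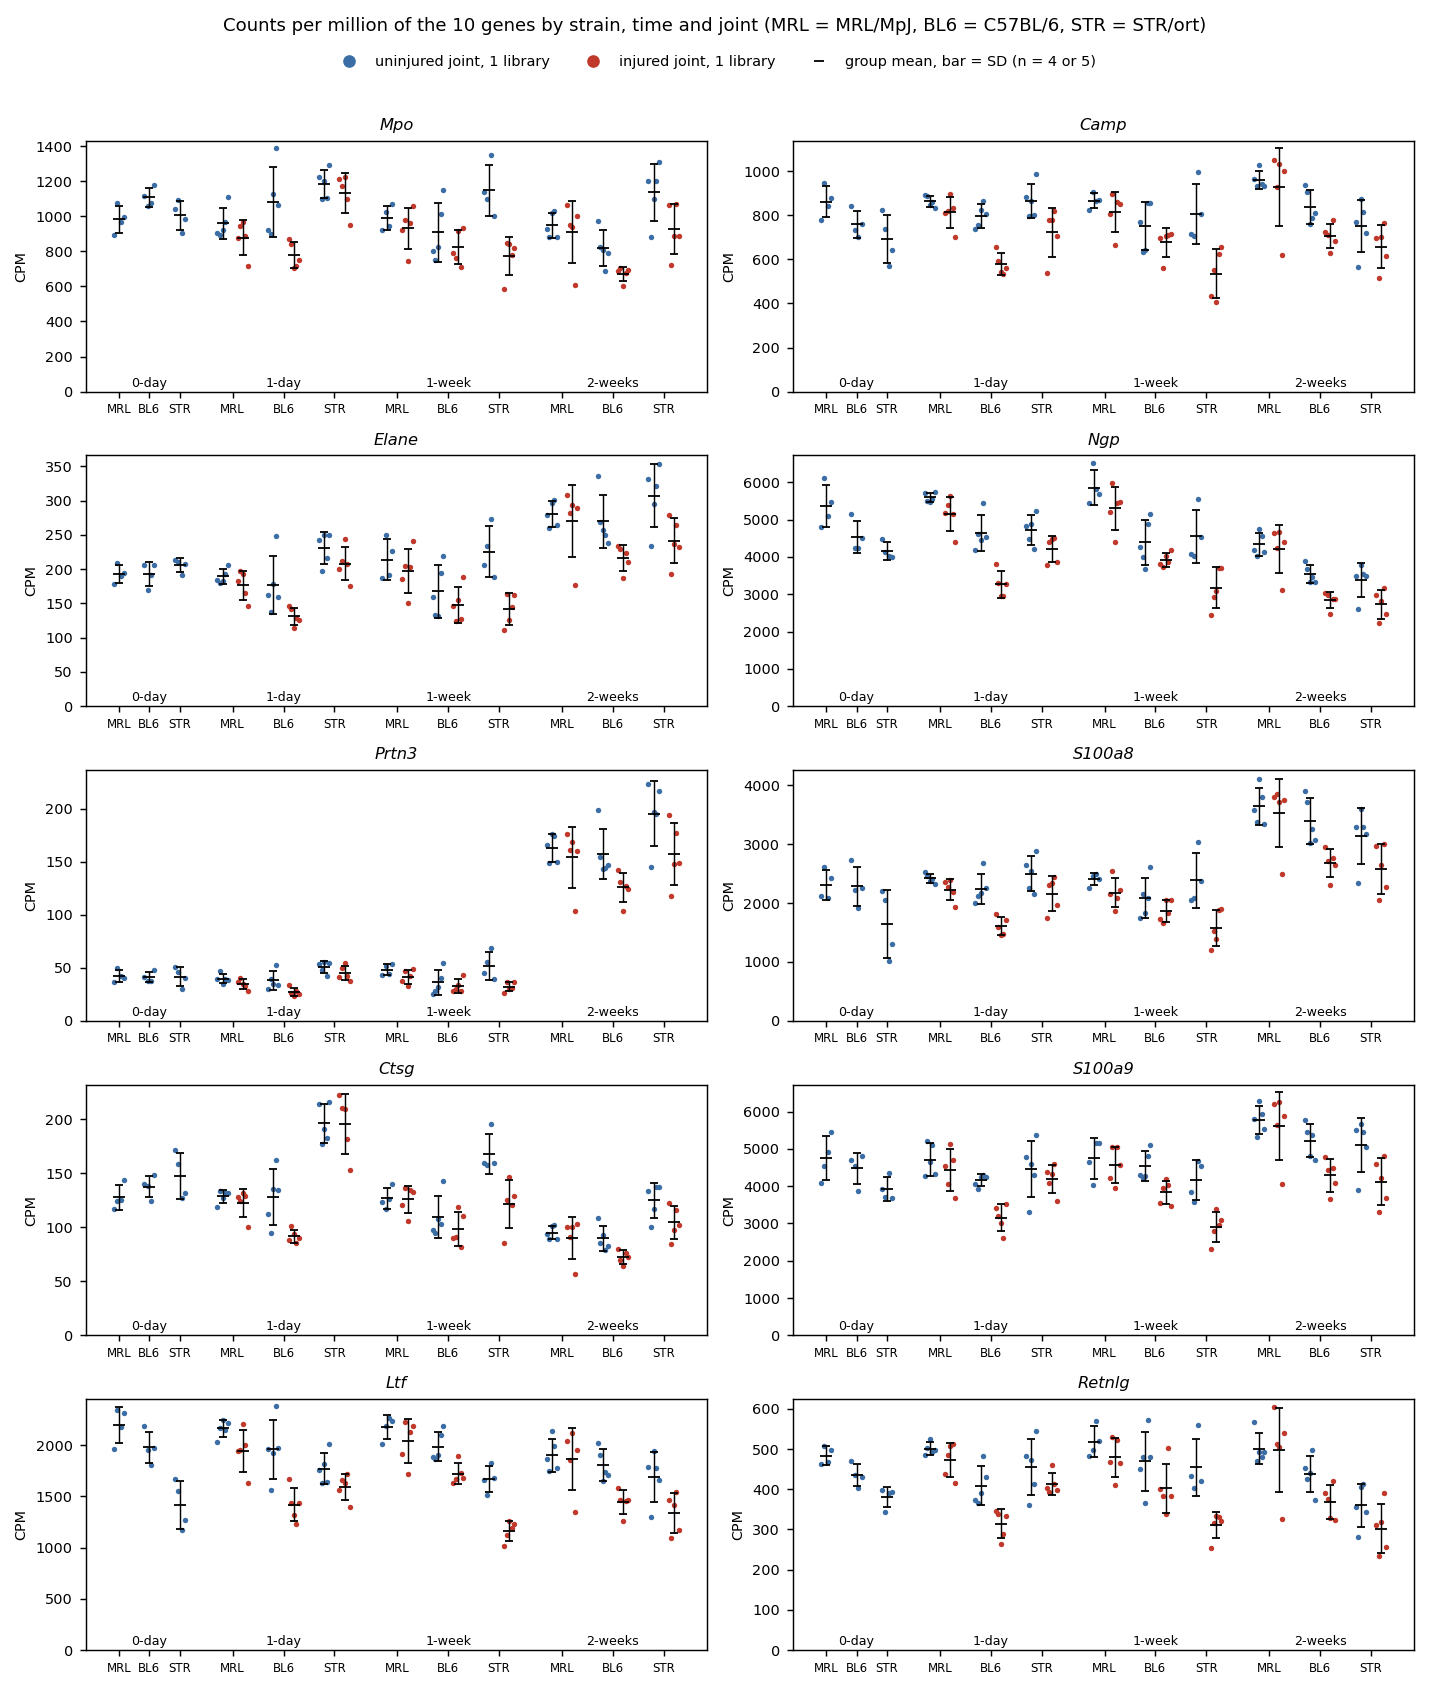
Level of each gene (CPM, linear axis from 0) in every library, grouped by time and strain, with uninjured joints in blue and injured joints in red; bars are the group mean and SD (n = 4 or 5). Injured joints of C57BL/6 at 1-day and of STR/ort at 1-week sit below their uninjured joints for all 10 means, and Prtn3 is far higher in the 30 libraries of 2-weeks.

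The main comparison of the study asks what injury does in each strain and at each time. For the neutrophil genes most values were negative. Across 3 strains and 3 times, the log2 fold change of injured against uninjured joints was negative for all 10 genes in 8 of 9 comparisons, the exception being Ctsg in MRL/MpJ at 1-week (0.02). In MRL/MpJ at 2-weeks this direction rested on injured replicate 4, and without that library all 10 values were positive (0.05 to 0.13, median 0.08). Leaving out any other single library turned at most 1 gene in a comparison, except in MRL/MpJ at 1-week, where up to 4 of 10 were positive (without injured replicate 3). The fall passed the test for all 10 genes in C57BL/6 at 1-day and in STR/ort at 1-week. It did so for 0 of 10 in MRL/MpJ at any time.

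In C57BL/6 at 1-day all 10 genes fell, with adjusted p between 8.80e-05 and 0.00784 (edgeR) and a median log2 fold change of -0.47. An adjusted p below 0.05 was reached at any fold by 19% of all 17310 genes, and by 8.15% in the downward direction. Of the 10 genes 0 passed 1.5-fold and were called by edgeR, against 5.60% of all genes. Without uninjured replicate 1 of C57BL/6 the number was 1. In the injury comparisons where edgeR called 0 genes, DESeq2 called 0 as well. The falls were alike across the roles: the median log2 fold change was -0.48 for the azurophil genes, -0.47 for the specific granule genes and -0.44 for the calgranulins, beside -0.02 over all genes.

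Among the azurophil genes in C57BL/6 at 1-day, Mpo, the enzyme that makes hypochlorous acid, measured 921, 899, 1129, 1389 and 1064 CPM in the 5 uninjured joints and 868, 842, 707, 719 and 748 CPM in the 5 injured joints. Every injured joint was below every uninjured joint. The log2 fold change of Mpo was -0.48 (SE 0.10, adjusted p = 9.0e-04, edgeR). Elane (-0.44), Prtn3 (-0.50) and Ctsg (-0.48) fell as far, but their groups overlapped. In Elane the overlap came from a single uninjured joint at 137 CPM, the lowest of its group, beside injured joints of 114 to 146 CPM.

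Of the specific granule genes, Ngp, a cystatin-related protein of unsettled function, measured 4181, 4619, 4440.3, 5452 and 4539 CPM in uninjured C57BL/6 joints at 1-day and 3819, 3297, 2958, 2956 and 3282 CPM in injured joints. The groups did not overlap, and Ngp had the largest fall of the 10 genes in this comparison, -0.51 (SE 0.09, adjusted p = 8.80e-05, edgeR). Camp, the source of an antimicrobial peptide, went from 796 ± 52.5 to 577 ± 49.5 CPM (SD, n = 5 each), also without overlap. Ltf, the iron-binding lactoferrin, went from 1961 ± 288 to 1419 ± 162 CPM (SD, n = 5 each), and 1 uninjured joint at 1567 CPM lay among the injured ones.

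The calgranulins fell in step in the same joints. S100a8 measured 2005, 2121, 2172, 2672 and 2257 CPM in uninjured C57BL/6 joints and 1822, 1586, 1464, 1482 and 1707 CPM in injured joints. S100a9 measured 4046, 3922, 4255, 4299 and 4253 CPM in the uninjured and 3421, 3209.8, 3002, 2624 and 3523 CPM in the injured joints. Neither gene overlapped between the groups. The log2 fold changes were -0.48 for S100a8 and -0.40 for S100a9. Retnlg fell least, with -0.38, from 408 ± 48.2 to 315 ± 35.8 CPM (SD, n = 5 each). In all, 6 of the 10 genes did not overlap, with injured joints below, which held for 2.96% of all genes.

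In STR/ort at 1-week the median log2 fold change was -0.56, beside -0.03 over all genes. All 10 genes fell with adjusted p of at most 0.00778 (edgeR). An adjusted p below 0.05 was reached at any fold by 21.9% of all genes, and by 10.2% in the downward direction. Of the 10 genes 4 were called lower (Elane, Prtn3, Camp and S100a8), against 9.21% of all genes called and 3.54% called lower. In all 10 genes every injured joint was below every uninjured joint, which held for 5% of all genes. The median was -0.63 for the azurophil genes, -0.53 for the specific granule genes and -0.56 for the calgranulins.

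Elane measured 207, 233, 273 and 188 CPM in the 4 uninjured STR/ort joints at 1-week and 111, 163, 126, 145 and 163 CPM in the 5 injured joints. Prtn3 measured 44.7, 55.6, 69.0 and 39.1 CPM in the uninjured and 26.7, 36.4, 29.9, 31.1 and 37.0 CPM in the injured joints. Both proteases were lower in every injured joint, and uninjured replicate 3 was the highest library of both. The log2 fold change was -0.68 for Elane (SE 0.15, adjusted p = 0.00168, edgeR). For Prtn3 it was -0.71 (SE 0.18, adjusted p = 0.00439, edgeR).

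Camp measured 714, 707, 997 and 805 CPM in uninjured STR/ort joints at 1-week and 434, 551, 408, 624 and 656 CPM in injured joints. S100a8 measured 2047, 2078, 3045 and 2376 CPM in the uninjured and 1210.1, 1525, 1395, 1889 and 1899 CPM in the injured joints. In both genes the injured joints lay below, and uninjured replicate 3 again stood highest. The log2 fold changes were -0.60 (SE 0.13, adjusted p = 0.00105, edgeR) for Camp and -0.60 (SE 0.13, adjusted p = 0.00156, edgeR) for S100a8. The number of called genes went from 4 to 0 without uninjured replicate 3, to 8 without uninjured replicate 2, and to 2 without STR/ort injured replicate 1, without any of C57BL/6 injured replicates 1, 2, 3 and 5, and by DESeq2, and the fold changes of these genes lie near 1.5. Whichever library was left out, 9 or 10 of the genes kept an adjusted p below 0.05. With the replicate number as a block, which pairs the joints of STR/ort at 1-week by the data alone, 6 genes were called: Mpo (-0.60), Elane (-0.73), Prtn3 (-0.74), Camp (-0.69), Ngp (-0.59) and S100a8 (-0.67), against 4.37% of all genes called lower in that fit. The labels name no animal at 1-week, and this pairing was taken from the same data, so these calls are no separate support.

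**Figure D2:**
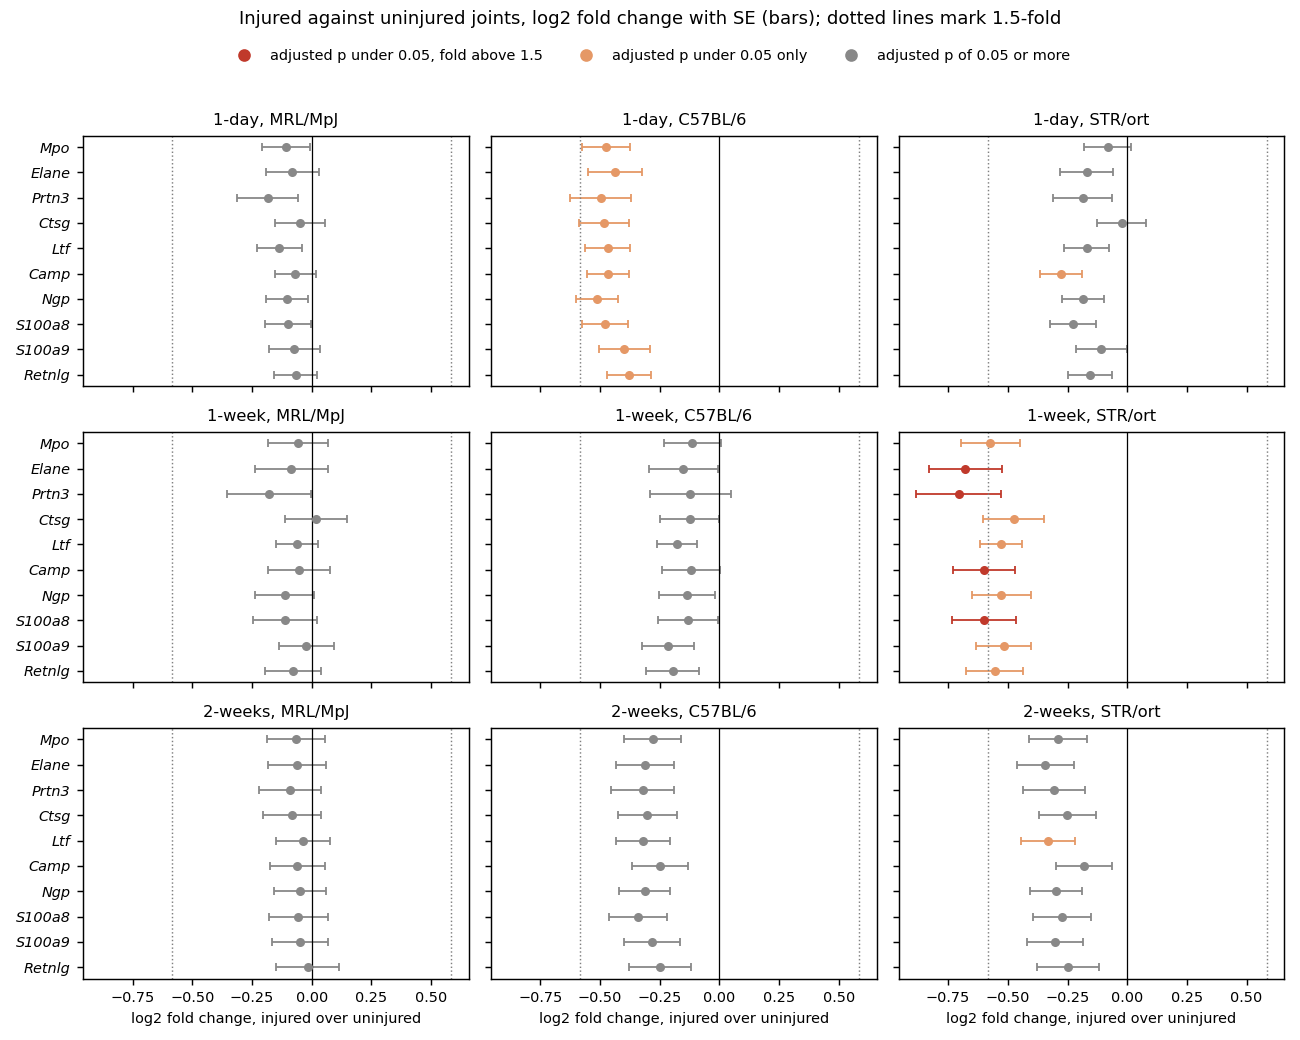
Log2 fold change of injured over uninjured joints for each gene (points) with its SE (bars), in 9 panels by time and strain; dotted lines mark 1.5-fold. All points lie to the left of 0 except Ctsg in MRL/MpJ at 1-week, and the values furthest to the left are those of C57BL/6 at 1-day and STR/ort at 1-week.

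At 2-weeks, where both joints came from the same mouse, the pattern was one of small falls in C57BL/6 and STR/ort that recurred in every animal. All 10 genes were lower in the injured joint of 5 of 5 C57BL/6 mice and of 5 of 5 STR/ort mice, so that all 50 pairs of gene and animal pointed down in each strain. Over all genes, 14.9% were lower in every C57BL/6 mouse and 14.1% in every STR/ort mouse. In MRL/MpJ the injured joint was lower in at most 2 of 5 mice for each gene, and in 5 of 5 mice for 0 genes. The median log2 fold change was -0.31 in C57BL/6, -0.29 in STR/ort and -0.06 in MRL/MpJ (0.08 without injured replicate 4).

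Without regard to the animal, the test of edgeR gave 0 called genes in C57BL/6 at 2-weeks (2.95% of all genes) and 0 in STR/ort (4.66%). In C57BL/6, 0 genes had an adjusted p below 0.05 (8% of all genes) and 9 had an unadjusted p below 0.05. In STR/ort, where 13.6% of all genes passed, these numbers were 1 (Ltf, -0.33, SE 0.11, adjusted p = 0.0464, edgeR) and 8. S100a8 in C57BL/6 measured 3895, 3708, 3026, 3265 and 3073 CPM in uninjured and 2959, 2709, 2307, 2757 and 2645 CPM in injured joints of mice 1 to 5, lower in each mouse and without overlap of the groups. In this strain 5 of the 10 genes did not overlap (3.82% of all genes). DESeq2 gave 3 genes with an adjusted p below 0.05 in C57BL/6 and 4 in STR/ort. The numbers went to 5 in C57BL/6 and 8 in STR/ort without MRL/MpJ injured replicate 4, which enters the shared estimate of the spread, and to 1 and 7 without STR/ort uninjured replicate 2. In STR/ort other single libraries moved the number between 0 and 3. With the animal as a block, 5 genes fell with an adjusted p below 0.05 in C57BL/6 (Prtn3, Ltf, Ngp, S100a8 and S100a9) and 6 in STR/ort (Elane, Prtn3, Ltf, Ngp, S100a9 and Retnlg), and 0 passed 1.5-fold. In this fit 10.7% of all genes had such an adjusted p in C57BL/6 (3.71% lower) and 15.8% in STR/ort (5.22% lower).

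Elsewhere the falls did not pass the test or passed it in 1 gene. In STR/ort at 1-day Camp had -0.28 (SE 0.09, adjusted p = 0.0368, edgeR), and the other 9 genes lay between -0.23 and -0.02. At an adjusted p below 0.05 this was 1 of 10 genes, against 10.1% of all genes, and 3 had an unadjusted p below 0.05. The number was 0 without, for example, STR/ort injured replicate 1 or 5 or uninjured replicate 1, 3 or 5. In C57BL/6 at 1-week the 10 values lay between -0.21 and -0.11, with 0 adjusted p below 0.05 (11.4% of all genes) and 1 unadjusted. In MRL/MpJ the values lay between -0.18 and -0.05 at 1-day, between -0.18 and 0.02 at 1-week and between -0.09 and -0.02 at 2-weeks, with 0 unadjusted p below 0.05 at each time. Called genes numbered 0 in these 5 comparisons, where 4.31% (STR/ort at 1-day), 5.82% (C57BL/6 at 1-week), 2.02%, 3.13% and 1.16% (MRL/MpJ, in order of time) of all genes were called.

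Whether the strains differ in their response to injury was tested by the interaction of strain and injury, where 0 of 30 pairs of gene and strain comparison were called at each time, against 1.05%, 0.458% and 0.166% of all such pairs. By DESeq2 0 were called as well. At 1-day the log2 fold change after injury in C57BL/6 minus that in MRL/MpJ had a median of -0.36, with an unadjusted p below 0.05 in 9 genes and a smallest adjusted p of 0.158 (edgeR). STR/ort minus C57BL/6 at 1-day had a median of 0.29, with 4 genes and a smallest adjusted p of 0.0766, that of Ctsg (0.46, SE 0.15, edgeR). At 1-week STR/ort minus MRL/MpJ had a median of -0.50, with an unadjusted p below 0.05 in 10 genes and a smallest adjusted p of 0.0662 (edgeR). STR/ort minus C57BL/6 had a median of -0.42, with 8 genes and 0.217. With the replicate number as a block, which pairs joints by the data in STR/ort alone, 3 pairs were called at 1-week, Camp in STR/ort against MRL/MpJ (adjusted p = 0.0431, edgeR) and Elane (0.0344) and Prtn3 (0.031) in STR/ort against C57BL/6, against 1.22% of all pairs in that fit. That pairing was taken from the same data, and these 3 calls are no separate support. At 2-weeks 0 genes had an unadjusted p below 0.05. The number of neutrophil genes that passed the test in 1 strain and not in another is therefore not by itself a difference between strains. Since the 10 genes move together, a number of them at an unadjusted p below 0.05 is no support for a difference either.

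Other genes of the neutrophil lineage went the same way. In C57BL/6 at 1-day, 10 of 11 other granule genes had a negative log2 fold change (median -0.42), led by Chil3 (-0.55) and the siderophore-binding Lcn2 (-0.47). So did 15 of 16 mature neutrophil genes (median -0.36), with Mxd1 (-0.42) and the histone-citrullinating enzyme Padi4 (-0.38) first by adjusted p, and 5 of 6 genes of precursors (median -0.37), with Fcnb (-0.49) and Ms4a3 (-0.44) first. In these 3 lists 0 genes were called, against 1.34% of all genes called lower and 4.26% called higher. In STR/ort at 1-week, 4 of 11 other granule genes were called lower (Chil3, Mmp8, Lcn2 and Pglyrp1), where 3.54% of all genes were called lower and 5.67% higher. So were 5 of 16 mature neutrophil genes (Fpr1, Hdc, Mxd1, Trem1 and Ly6g) and 2 of 6 precursor genes, the G-CSF receptor Csf3r (-0.65) and the transcription factor Cebpe (-0.61).

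In STR/ort at 1-day, where 1.61% of all genes were called higher, some genes of these lists rose, but the sums over the lists stayed close. Their means in uninjured and injured joints were 813 and 820 CPM for mature neutrophil genes and 5817 and 5849 CPM for other granule genes. For precursor genes they were 494 and 487 CPM. Hp, which encodes the acute-phase protein haptoglobin and is found in specific granules as well as in many other cells, rose by 0.87 on the log2 scale (adjusted p = 3.4e-06, edgeR). The C-type lectin receptors Clec4e (0.81) and Clec4d (0.61), found on neutrophils and macrophages, rose as well, while the 10 granule and calgranulin genes had a median of -0.17. Among receptors and protease inhibitors, the inhibitor Serpina3n was called higher in C57BL/6 at 1-day (2.16) and 0 of the other 8 genes were called. Slpi, the secretory inhibitor of elastase, had -0.47 (adjusted p = 9.85e-04, edgeR) there.

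Markers of other marrow cells had negative medians in the same comparisons, although few of them were called in C57BL/6. In C57BL/6 at 1-day the median log2 fold change was -0.49 over 7 erythroid genes (0 called higher, 1 lower), -0.46 over 8 B-lineage genes (0 and 1), -0.45 over 5 eosinophil genes (0 and 0) and -0.30 over 5 megakaryocyte genes (0 and 0). In STR/ort at 1-week these medians were -0.55 (0 and 1), -0.53 (0 and 1), -0.65 (0 and 4) and -0.60 (0 and 3). Bone markers stood at -0.32 (0 and 0) and -0.59 (0 and 3), and cell cycle genes at -0.21 (0 and 0) and -0.28 (0 and 0). The summed level of the erythroid list was 2723 to 4198 CPM in uninjured and 1996 to 3278 CPM in injured joints of C57BL/6 at 1-day, and 1685 to 4281 and 930.4 to 2919 CPM in STR/ort at 1-week, with overlap in both. The sum of the 10 genes was 14519 to 18002 CPM in uninjured and 10082 to 12866 CPM in injured C57BL/6 joints at 1-day, and 13840 to 18536 and 8464 to 12047 CPM in STR/ort at 1-week. Whether less marrow in the injured joint accounts for any of the fall was not tested.

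Other tissues did not move in 1 direction. Macrophage markers were higher in injured C57BL/6 joints at 1-day, where 4 of 8 genes were called higher, among them Adgre1 (0.94) and C1qb (1.04), and their summed level was 680.1 to 835 CPM in uninjured and 989.7 to 1196 CPM in injured joints. In STR/ort at 1-week 0 of these 8 genes were called and their median was -0.18. Skeletal muscle markers had a median of -0.28 in C57BL/6 at 1-day (1 higher, 0 lower) and -0.74 in STR/ort at 1-week (0 and 4), and cartilage markers -0.28 (1 and 1) and -0.23 (1 and 0). Of 6 genes of mast cells and basophils 0 and 1 were called (1 lower), with medians of -0.08 and 0.04. The basophil proteases Mcpt8 (-0.52 and -0.46) and Prss34 (-0.51 and -0.73, the called one) fell in both comparisons (adjusted p of at most 0.0244, edgeR), and the other 4 genes had adjusted p of at least 0.119. The summed level of this list was 83.1 to 100.3 CPM in uninjured and 67.4 to 80.0 CPM in injured C57BL/6 joints at 1-day, and 89.2 to 109 and 60.1 to 103 CPM in STR/ort at 1-week. The skin list could be read through 1 gene, Krt10, which stayed at most 3.60 CPM in these 4 groups. The part of these tissues in the fall of the 10 genes was not tested.

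**Figure D3:**
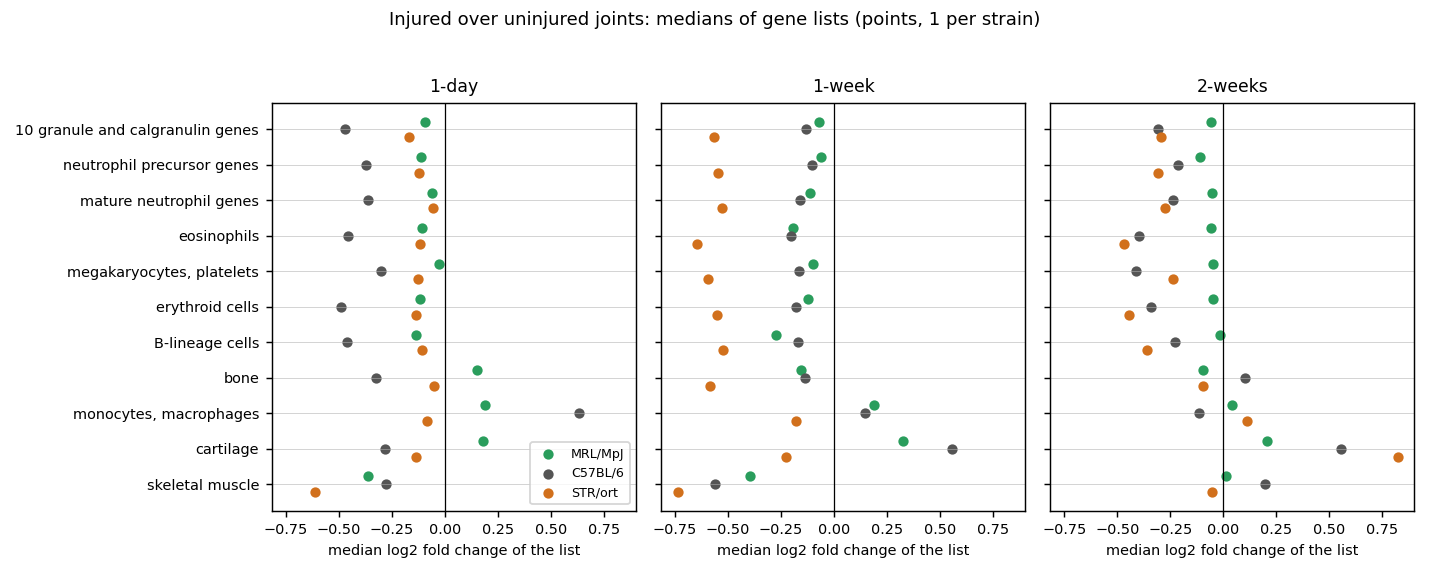
Median log2 fold change of injured over uninjured joints for the 10 genes and for 10 lists of marker genes, 1 point per strain in each panel of 1-day, 1-week and 2-weeks. C57BL/6 at 1-day and STR/ort at 1-week lie left of 0 for the neutrophil, eosinophil, erythroid, B-lineage and megakaryocyte lists alike, whereas the macrophage list of C57BL/6 at 1-day lies at 0.63.

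Strains were next compared within uninjured and within injured joints. In the called pairs with STR/ort, Ctsg, Elane and Prtn3 were higher in that strain, and Ltf, Camp, Ngp, S100a9 and Retnlg were lower, whereas Mpo and S100a8 were called in 0 pairs of strains. Elane and Prtn3 were called only in injured joints at 1-day against C57BL/6. In injured joints at 1-week all 10 values of STR/ort against MRL/MpJ were negative. The numbers called lay near or below the share of all genes that stands beside each of them below. Before injury 1 of 10 genes was called between STR/ort and MRL/MpJ (14.8% of all genes), 0 between STR/ort and C57BL/6 (13.8%) and 0 between C57BL/6 and MRL/MpJ (15.9%), where 4, 3 and 1 genes had an adjusted p below 0.05 (33.8%, 35.2% and 34.1% of all genes) and 7, 5 and 1 an unadjusted p below 0.05. The called gene was Ltf, which measured 1674, 1555, 1174 and 1268 CPM in STR/ort, 1959.6, 2340.1, 2176 and 2314 CPM in MRL/MpJ and 2185, 1949, 1811 and 1968 CPM in C57BL/6. STR/ort was below both other strains in every library, and 3 of the 10 genes were below MRL/MpJ (17% of all genes) and 2 below C57BL/6 (15.1%) in this way. Against MRL/MpJ the log2 fold change was -0.63 (SE 0.11, adjusted p = 2.0e-04, edgeR), and the call was lost without STR/ort replicate 3 or replicate 4, the libraries with the lowest levels, and with RUVg. Without STR/ort replicate 1 the numbers called were 2 against MRL/MpJ and 2 against C57BL/6, and without replicate 2 they were 2 and 1.

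Ctsg was the gene that set STR/ort apart most at 1-day. Its levels in injured joints were 223, 210.3, 209.7, 181 and 153 CPM in STR/ort, 88.3, 101, 93.4, 85.5 and 89.8 CPM in C57BL/6 and 128, 124, 132, 129 and 100.3 CPM in MRL/MpJ. Every STR/ort library was above every library of the other strains. Such a gap to C57BL/6 was found in 6 of the 10 genes (8.79% of all genes), and to MRL/MpJ in Ctsg alone (15.6%). The log2 fold change was 1.09 (SE 0.11, adjusted p = 2.51e-09, edgeR) against C57BL/6 and 0.68 (SE 0.10, adjusted p = 3.55e-06, edgeR) against MRL/MpJ. In uninjured joints at 1-day Ctsg was called higher by 0.63 against C57BL/6 (SE 0.10, adjusted p = 2.85e-05, edgeR) and 0.65 against MRL/MpJ (SE 0.10, 5.44e-06), and at 1-week by 0.64 against C57BL/6 (SE 0.13, 1.75e-04). The call of 0.63 was lost without C57BL/6 uninjured replicate 1 or 2, and that of 1-week without STR/ort uninjured replicate 3. Scaling by housekeeping genes and RUVg ended these calls, except that against C57BL/6 in injured joints, and the direction did not turn.

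Elane (0.66, SE 0.11, adjusted p = 3.57e-05, edgeR) and Prtn3 (0.72, SE 0.13, adjusted p = 6.71e-05, edgeR) were likewise called higher in injured STR/ort than in injured C57BL/6 joints at 1-day. RUVg ended both calls, and housekeeping scaling that of Elane. Ngp was called lower in injured C57BL/6 than in injured MRL/MpJ joints (-0.64, SE 0.09, adjusted p = 8.27e-07, edgeR). This made 5 of 30 pairs of gene and strain comparison in injured joints (16.3% of all such pairs) and 2 of 30 in uninjured joints (16%). These 3 comparisons share their groups, and the injured C57BL/6 joints that were low here are those that fell after injury.

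At 1-week Ltf, Camp, Ngp, S100a9 and Retnlg were lower in injured STR/ort than in injured MRL/MpJ joints and made up 5 called of 30 pairs, against 21.4% of all pairs. Housekeeping scaling gave 8 called pairs and RUVg 17 in these joints, and the share of all pairs under these scalings is not given here. Ltf measured 1012, 1123, 1255, 1190.4 and 1229 CPM in STR/ort and 1919, 2229.8, 1721, 2127 and 2191 CPM in MRL/MpJ. Of the 10 genes 5 did not overlap, with STR/ort below (17.9% of all genes). The log2 fold changes were -0.83 for Ltf (SE 0.08, adjusted p = 2.25e-09, edgeR), -0.76 for Ngp (SE 0.12, adjusted p = 2.96e-06, edgeR), -0.66 for S100a9 (SE 0.11, 6.95e-06), -0.64 for Retnlg (SE 0.11, 1.67e-05) and -0.62 for Camp (SE 0.12, 7.72e-05). Camp lost its call without STR/ort injured replicate 1 or 3 and Retnlg without replicate 1, which left 3 pairs. Among the azurophil genes 0 were called, with a median of -0.33. In uninjured joints at 1-week 1 of 30 pairs was called (18.4%), with 3 without C57BL/6 uninjured replicate 5, 2 without STR/ort uninjured replicate 1 or 4 and 0 without replicate 3. At 2-weeks Ngp (-0.61, SE 0.11, adjusted p = 2.44e-05, edgeR) and Retnlg (-0.71, SE 0.13, adjusted p = 4.43e-05) were called lower in injured STR/ort than MRL/MpJ joints, 2 of 30 pairs (13.6%), with overlap of the groups. Without MRL/MpJ injured replicate 4, a library low for most of the 10 genes, 5 pairs were called, and Ngp lost its call without MRL/MpJ injured replicate 1 or 3 or STR/ort injured replicate 2 or 5. In uninjured joints 0 of 30 were called (11.1%) while 10 had an unadjusted p below 0.05.

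Erythroid markers also differed between these strains, with a median of -1.14 before injury in STR/ort against MRL/MpJ (0 of 7 higher, 7 lower), while B-lineage markers had a median of 0.68 (5 of 8 higher, 0 lower). Their part in the strain differences of the 10 genes was not tested. Direction depended on the scaling in some strain comparisons. With RUVg the median of the 10 genes went from 0.07 to -0.24 for STR/ort against MRL/MpJ in uninjured joints at 1-day and from 0.17 to -0.32 for STR/ort against C57BL/6 in uninjured joints at 1-week. In injured joints at 1-week it went from -0.56 to -1.03 for STR/ort against MRL/MpJ. The medians of the 9 injury comparisons kept their sign under every scaling.

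A ratio within a library does not depend on scaling. The mean log2 CPM of the 4 azurophil genes minus that of Ltf, Camp and Ngp was higher in every STR/ort library than in every library of the other strains at each time. Before injury it was -3.13 to -3.03 in STR/ort and at most -3.21 in the other 8 libraries. At 1-day it was -3.18 to -2.75 in 10 STR/ort libraries and at most -3.27 in 20 others, and at 1-week -3.31 to -2.90 and at most -3.33. At 2-weeks the values were -2.66 to -2.23 and at most -2.75. The gap between STR/ort and the others was smallest at 1-week. Before injury MRL/MpJ (-3.626 to -3.575) and C57BL/6 (-3.47 to -3.21) did not overlap each other either, whereas at later times they did. How often other sets of genes part the strains in this way was not examined. Within a strain, injured and uninjured joints overlapped in this balance.

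The ratio of Ctsg to Ltf, a pair picked after the values were seen, showed the same order. It was 0.102 to 0.108 in STR/ort before injury and at most 0.0753 in the other strains. At 1-day it was 0.105 to 0.143 against at most 0.0707, at 1-week 0.0842 to 0.117 against at most 0.0655, and at 2-weeks 0.06 to 0.0877 against at most 0.0563. In this ratio too MRL/MpJ (0.0533 to 0.06215) and C57BL/6 (0.064 to 0.0753) did not overlap each other before injury. These values are descriptions without a test. Reads of STR/ort and MRL/MpJ were aligned to the C57BL/6J genome, and the part of sequence differences between strains in the counts of single genes was not tested.

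**Figure D4:**
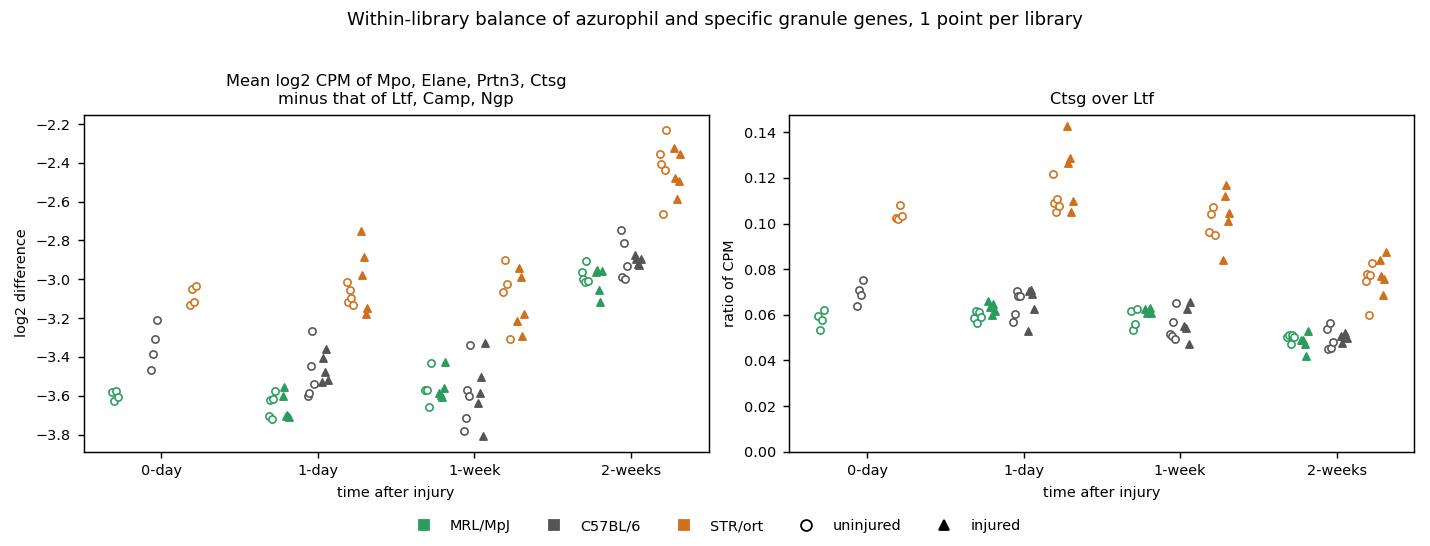
Balance of azurophil and specific granule genes, 1 point per library, by time and strain: on the left the mean log2 CPM of Mpo, Elane, Prtn3 and Ctsg minus that of Ltf, Camp and Ngp, on the right the ratio of Ctsg to Ltf (linear axis from 0). STR/ort points (orange) lie above all others at each time, for example at 0.102 to 0.108 before injury against at most 0.0753 on the right.

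Over time within the first batch, 0 of 10 genes were called in uninjured joints at 1-day against 0-day in MRL/MpJ and 0 in C57BL/6, where 0.0924% and 0.0693% of all genes were called, and 0 had an unadjusted p below 0.05. Mice of later times were also older, and age and time cannot be told apart. In STR/ort S100a8 was called higher, by 0.60 (SE 0.14, adjusted p = 6.69e-04, edgeR), against 9.92% of all genes in that strain. It measured 2213, 2056, 1021 and 1309 CPM at 0-day and 2649, 2260.0, 2547, 2148 and 2888 CPM at 1-day. The groups overlapped, and 0-day replicates 3 and 4 were the low ones. The call was lost without 0-day replicate 3 or 4 or 1-day replicate 1 or 5, and under housekeeping scaling and RUVg. At 1-week against 0-day 0 of 30 combinations were called (6.43% of all), with 5 unadjusted p below 0.05 and 0 called by DESeq2. In C57BL/6 Ctsg (-0.37, from a mean of 138 to 109 CPM) and Mpo (-0.32, from 1108 to 908 CPM) had an adjusted p of 0.0306 and 0.0402 (edgeR, 13.8% of all genes below 0.05), and in STR/ort S100a8 (0.52, from 1650 to 2386 CPM) had 0.00378 (31.6%). The number was 1 without STR/ort replicate 1 or 2 of 0-day or uninjured replicate 1 or 2 of 1-week.

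From 1-day to 1-week in injured joints of STR/ort all 10 genes fell with an adjusted p below 0.05, with a median log2 fold change of -0.48 (34.5% of all genes at any fold, 17.4% lower), and 8 did not overlap, with 1-week below (8.16% of all genes). Ctsg was called lower (-0.69, SE 0.11, adjusted p = 1.29e-06, edgeR), with 153 to 223 CPM at 1-day and 85.2 to 147 CPM at 1-week, against 13.9% of all genes. The call was lost without injured replicate 1 of 1-week, which left 0 called over the 3 strains, while 3 were called without STR/ort injured replicate 5 of 1-day or replicate 2 or 3 of 1-week, and 2 without replicate 5 of 1-week. In C57BL/6 all 10 values were positive, with a median of 0.25, and 4 genes rose with an adjusted p below 0.05 (16.2% of all genes at any fold, 7.35% higher) and 0 were called (4.47%). In MRL/MpJ 0 genes had an unadjusted p below 0.05, with a median of 0.07. The difference between strains in this change was not tested.

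Between the batches Prtn3 behaved unlike its relatives. Its median over libraries was 39.5 CPM in the 70 libraries of 0-day, 1-day and 1-week and 152 CPM in the 30 libraries of 2-weeks, a ratio of 3.86. Of 14415 genes with a mean of at least 1 CPM, 48 (0.333%) had a higher ratio, and the range from the 5th to the 95th percentile was 0.502 to 1.95. Elane, which starts next to Prtn3, had a ratio of 1.40. Ctsg (0.742), Ngp (0.774) and S100a8 (1.49) lay within that range as well. The ratio of Prtn3 to Elane was 0.157 to 0.289 in every library of the first batch and 0.555 to 0.696 in every library of the second, in all 3 strains and in both joints. Within each time point the comparisons of injured and uninjured joints are inside 1 batch. Time and batch cannot be told apart here.

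**Figure D5:**
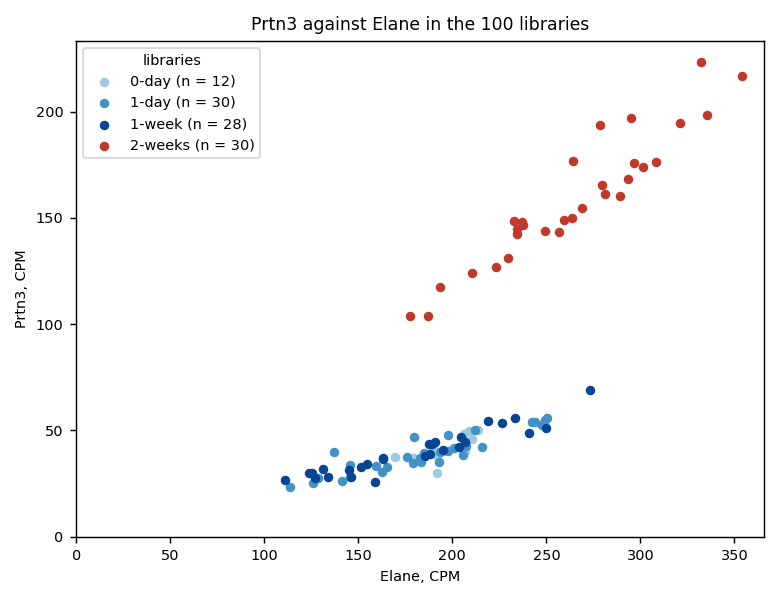
Prtn3 against Elane in 100 libraries (both axes in CPM, linear from 0), with libraries of 0-day, 1-day and 1-week (first experimental batch) in shades of blue and those of 2-weeks (the second) in red. The points of the batches do not mix: Prtn3 is 0.157 to 0.289 times Elane in the first batch and 0.555 to 0.696 times Elane in the second.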

How the data were processed

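Knee joints of 3 mouse strains were measured by RNA sequencing in 100 libraries of 21 groups. Per the submitters' processing notes and the study's methods, the authors used TopHat2 (version 2.0.11) for alignment to mm10 and featureCounts for the number of reads on each RefSeq gene. The deposited counts are whole numbers without normalization, and whether strand was used in counting is not given in the sources used here. The table lists 17313 genes. Of these, 3 entries repeat another and were dropped, and 24 carry a date in place of a gene name. Requiring 2 counts in 5 libraries, as the study did, removed 0 genes. No column of the table was left unused. Among 190 pairs of libraries within groups 0 were identical. Where the labels name no animal, p-values measure the spread between libraries.

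The test was the quasi-likelihood test of edgeR (4.0.16, under R 4.3.3) on the counts with TMM factors and Benjamini-Hochberg adjustment over all 17310 genes, in 1 fit per time point with a mean per strain and joint, and in 1 fit of the 70 libraries of the first batch for comparisons between times. Called means an adjusted p below 0.05 and a fold change above 1.5. For CPM the TMM factors were estimated on the 100 libraries together. A prior count of 2 entered log2 CPM. The fits were tested on simulated data. Exon lengths are those of GENCODE vM21 gene models.

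The alternatives were RLE size factors, scaling by 25 housekeeping genes named by the study, RUVg with 1 factor from these genes, no filter, the filterByExpr filter, DESeq2 (version 1.42.0), a replicate block, CPM without TMM, and each library left out in turn. A block pairs joints where the labels name 1 animal (15 pairs at 2-weeks), or where every correlation of the deviations of same-numbered joints from their group means was over 0.1. This held at 1-week in STR/ort (0.162 to 0.37) and, at the other times without named animals, in no other group. In C57BL/6 at 1-week the correlations ran from -0.0353 to 0.431. For joints of named animals at 2-weeks they were 0.183 to 0.271 in C57BL/6, 0.213 to 0.449 in STR/ort and -0.279 to 0.0824 in MRL/MpJ. The rule would not have paired the MRL/MpJ joints of 1 mouse, so it cannot show which joints share a mouse.

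The genes, lists, motifs and tests were chosen with earlier results of these data known. All 10 genes are named. Fold change, SE and adjusted p were to be given for called pairs of gene and comparison, ranges and counts for the rest. Of each list the counts called and the genes with the smallest adjusted p or defining markers are given. The genes most alike were to be the 5 of at least 1 CPM with the highest Pearson r over 100 libraries with the mean log2 CPM of each role. Of 111 listed marker genes 105 were found in the table, and the others were not analysed here.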

Additional observations from a re-analysis of the deposited data

Results flagged for a closer look

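In 210 combinations of gene and group, each with 4 or 5 libraries, 18 held a library whose gap to its nearest neighbour exceeded Dixon's critical value at the 95% level. Chance flags about 1 in 20 groups, and genes of 1 library are not independent of each other.

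Injured replicate 4 of MRL/MpJ at 2-weeks was low in 7 of these combinations. It measured 605.95 CPM for Mpo where the next library had 937 CPM, 177.4 CPM for Elane (next 281), 103.66 CPM for Prtn3 (next 160.4), 56.47 CPM for Ctsg (next 91.2), 3105.9 CPM for Ngp (next 4244), 2491.2 CPM for S100a8 (next 3718) and 4046.5 CPM for S100a9 (next 5631). Without this library 8 rather than 1 of the 10 genes had an adjusted p below 0.05 for injury in STR/ort at 2-weeks and 5 rather than 0 in C57BL/6 (edgeR), although no library of these strains was left out. In MRL/MpJ itself all 10 log2 fold changes at 2-weeks were negative with it (median -0.06) and positive without it (median 0.08).

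The other low libraries were injured replicate 1 of STR/ort at 1-week for Mpo (584.31 CPM, next 777) and Retnlg (253.09 CPM, next 316), injured replicate 3 of C57BL/6 at 2-weeks for Mpo (600 CPM, next 676) and injured replicate 5 of MRL/MpJ at 1-day for Ctsg (100.34 CPM, next 124). Low values also came from injured replicate 2 of C57BL/6 at 1-week for Camp (561.18 CPM, next 694), uninjured replicate 2 of STR/ort at 2-weeks for Ngp (2598.1 CPM, next 3483) and replicate 2 of STR/ort at 0-day for Retnlg (344.53 CPM, next 390.09). High libraries were uninjured replicate 1 of C57BL/6 at 2-weeks for Prtn3 (198.4 CPM, next 155), uninjured replicate 5 of C57BL/6 at 1-week for Ctsg (142.74 CPM, next 108), uninjured replicate 3 of STR/ort at 1-week for Ctsg (195.88 CPM, next 159.6) and uninjured replicate 1 of MRL/MpJ at 2-weeks for Retnlg (568.37 CPM, next 493). The cause of these gaps was not tested, and all libraries were kept.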

How the results depend on the processing

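Of 838 values of called pairs of gene and comparison under an alternative, 783 kept their call, 55 lost it and 0 turned direction. The medians of the 10 genes moved by less than 1 SD between libraries (0.162 on the log2 scale) in 327 settings of the injury comparisons, but that of MRL/MpJ at 2-weeks went from -0.06 to 0.08 without injured replicate 4. With RUVg the number called between STR/ort and MRL/MpJ at 0-day was 0 instead of 1. With housekeeping scaling the number between STR/ort and C57BL/6 at 0-day was 2 instead of 0. For injury in STR/ort at 1-week DESeq2, RLE factors and housekeeping scaling each gave 2 instead of 4. Between strains, uninjured joints at 1-day had 0 called pairs with housekeeping scaling and 0 with RUVg (2 as reported), injured joints at 1-week 8 and 17 (5 as reported) and uninjured joints at 1-week 0 and 5 (1 as reported). Uninjured joints at 1-day against 0-day had 0 with each (1 as reported). Shares of all genes under these scalings are not given here, so a change in all genes cannot be told from one in the 10 genes. The cause was not tested. Housekeeping scaling moved the median of all genes by up to -0.17 (injured joints at 1-day, STR/ort against MRL/MpJ).

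With the replicate block the interaction at 1-week had 3 called pairs instead of 0. Outside STR/ort the joints of 1-week share only a number, and there and at 1-day the block changed no number of called genes by more than 1.5 times in the injury comparisons.

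Without single libraries the number of called genes ranged from 0 to 2 at 0-day in STR/ort against MRL/MpJ and from 0 to 2 against C57BL/6, from 0 to 1 for injury in C57BL/6 at 1-day and from 0 to 8 for injury in STR/ort at 1-week. Called pairs between strains ranged from 1 to 2 in uninjured joints at 1-day, from 3 to 6 in injured and from 0 to 3 in uninjured joints at 1-week, and from 1 to 5 in injured joints at 2-weeks. Between times they ranged from 0 to 1 at 1-day and from 0 to 1 at 1-week against 0-day, and from 0 to 3 for injured joints at 1-week against 1-day.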

Other observations

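Outside the 10 genes, those whose level followed the azurophil mean most closely over 100 libraries were Cldn15 (Pearson r = 0.861), Mboat7 (0.839), the myeloid kinase Fes (0.833), Zyx (0.813) and Ly6c2 (0.804), a surface protein of monocytes and neutrophil precursors. The specific granule mean was followed by Trem3 (0.925), 4930438A08Rik (0.919), the neutrophil surface protein Cd177 (0.915), the inhibitory lectin Siglece (0.903) and Pygl (0.902), which releases glucose from glycogen. The calgranulin mean was followed by I830127L07Rik (0.905), Plbd1 (0.905), Arrb2 (0.903), the membrane-bound metalloproteinase Mmp25 (0.895) and Cebpe (0.892), the transcription factor of late granulocyte maturation. These values were taken over 14407 genes, the libraries share 2 batches and their scaling, and no p is given. Within groups r was lowest for Cldn15 (0.60) and Mboat7 (0.607), so their likeness rests more on differences between groups than that of Fes (0.850).

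Over all 100 libraries, without removal of group means, r between pairs of the 10 genes ran from -0.322 to 0.837 with a median of 0.485, lower than within groups, where the lowest was 0.471.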
